A study of Mus musculus with 4 samples.

Results

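Blood endothelial cells of the neonatal mouse ear were compared by the amount of CXCR4 protein on their surface, as counted by an antibody tag in the same cells whose mRNA was sequenced. Of 4622 cell barcodes in 2 libraries, 2355 met the rule for blood endothelium, 1009 in library 1 and 1346 in library 2. The high group held the 490 cells (203 and 287) with 30 or more CXCR4 tag counts, and the low group held the 958 cells (430 and 528) with 0 to 3. Cells in between were grouped as lower middle (4 to 9 tag counts) and upper middle (10 to 29). The rule asked for 500 or more detected genes, at most 10% mitochondrial UMIs (unique molecular identifiers, 1 for each mRNA molecule caught), at least 1 UMI of Cdh5, no UMI of the lymphatic genes Prox1, Mmrn1 and Reln, and fewer than 5 UMIs of the mural cell genes Pdgfrb, Kcnj8 and Ndufa4l2. The members were chosen by their CXCR4 tag counts, so those counts are given as a description, and mRNA was tested without the 7 genes of the rule.

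All cells came from C57BL/6 mice at postnatal day 8 that carried Cdh5CreERT2-Rtom, a red reporter switched on by a tamoxifen-inducible Cre under the control of the VE-cadherin gene Cdh5. Genotype and age were thus shared by the groups. Ears were dissociated, CD31+ cells were enriched magnetically, and live CD31+ Cdh5CreERT2-Rtom+ cells were sorted, so endothelial cells in which the Cre had not acted were not sampled. The libraries are labelled as biological replicates, and how many animals went into each is not stated by the labels. Median depth of the kept cells was 8001 and 8516 UMIs, and 3 barcodes were shared between the libraries, 1 of them among kept cells. The 12 pan-endothelial markers together took 7150 to 7380 of every 1000000 UMIs (raw CPM) in low and 8260 to 8320 in high cells. Ptprc, the gene of the leukocyte protein CD45, gave a UMI in 0 low cells and in 1 high cell of each library.

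CXCR4 is a G protein-coupled receptor of the cell surface whose chemokine ligand is CXCL12, and ACKR3 is an atypical receptor that binds and removes the same ligand. In growing vessel beds CXCR4 is known from sprouting tip cells and from endothelial cells that join forming arteries, while CXCL12 is made by arterial endothelium and by surrounding cells. Receptor protein can be held inside the cell or removed after it binds its ligand, so mRNA and surface protein need not run in parallel. Each antibody carried an oligonucleotide whose barcode names its target, and isotype control antibodies without a target gave the level of unspecific staining. The barcodes of the tag that defined the groups, of both isotype controls and of the ICAM1 and VEGFR2 tags are shown, because all protein values are counts of such sequences.
CXCR4: gtcgtggtgttgttc
isotype IgG2b: gattcttgacgacct
isotype IgG2a: aagtcaggttcgttt
ICAM1: ataaccgacacagtg
VEGFR2: ataagagcccaccat
The CXCR4 barcode differed from that of every other antibody at 10 or more of its 15 bases, and the nearest was isotype IgG2a.

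CXCR4 tag counts spread over a wide range, up to 518 in library 1 and 658 in library 2. The median was 74 and 64 in high cells, 17 and 17 in the upper middle, 5 and 5 in the lower middle, and 1 and 2 in low cells. The sum of both isotype tags had a median of 1 and 2 in high and of 1 and 1 in low cells, and 1 cell of all 2355 reached 30 isotype counts. Just inside the upper limit, 14 and 33 cells carried 30 to 34 CXCR4 counts, and just outside it, 34 and 27 cells carried 25 to 29. At the lower limit, 187 and 265 cells carried 2 or 3 counts and 107 and 141 carried 4 or 5. Both limits fell on a continuous slope.

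**Figure D1:**
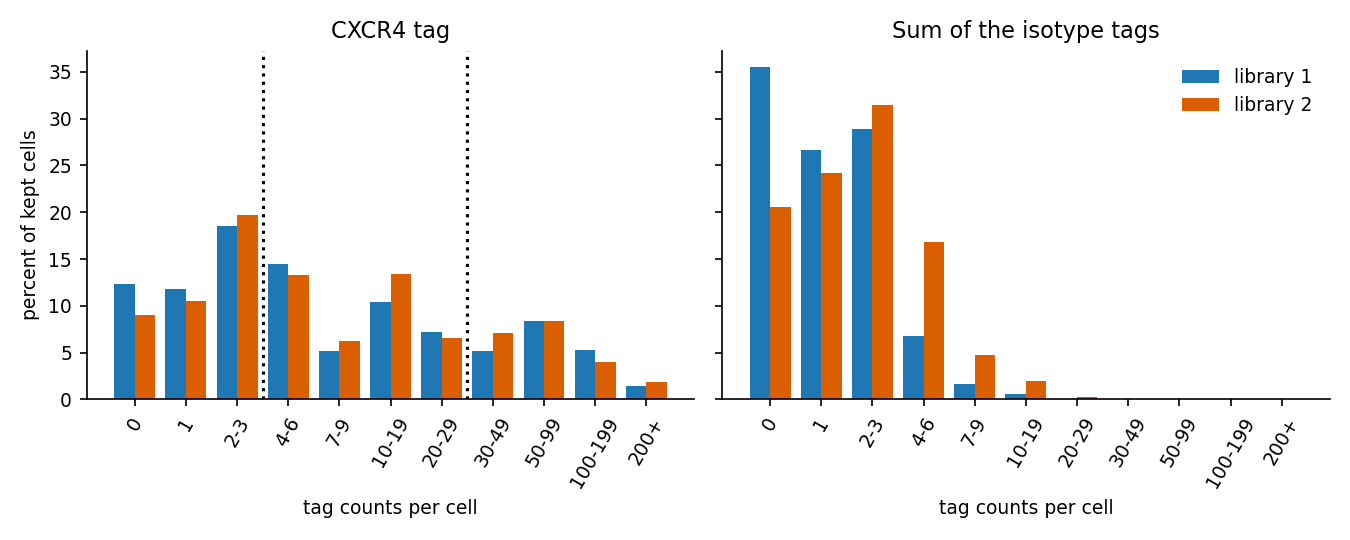
Percent of kept cells (vertical axis) by tag counts per cell (horizontal axis, unequal bins) for the CXCR4 tag and for the sum of both isotype tags, in library 1 and library 2; dotted lines mark the limits of the low and high groups. CXCR4 counts ran on to 200 and more, in 14 and 25 cells, whereas 1 cell had an isotype sum of 30 or more.

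The other tags were not used by the rule. ICAM1 tag counts ran against CXCR4, with medians of 74 and 97 in high and 150 and 162.5 in low cells, and the rank correlation of the tags across cells was -0.269 and -0.239. VEGFR2 tag counts were small, with medians of 3 and 4 in high and 2 and 2 in low cells (rank correlation with CXCR4 0.18 and 0.216). The CD45 tag had medians of 2 and 2 in high and 1 and 1 in low cells (0.156 and 0.138). The VCAM1 tag had medians of 1 and 2 in high and 1 and 1 in low cells (0.0556 and 0.177). For isotype IgG2a the correlation was 0.0902 and 0.188, so a small positive value was not particular to VEGFR2. High cells also held more mRNA, with medians of 8839 and 10480 UMIs against 7758 and 7786. These values describe 2 libraries whose cells share an antibody mix and whose tag counts move with depth.

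Cxcr4 mRNA was much more abundant in cells with much CXCR4 protein. The gene is protein coding and lies on chromosome 1 at 128588199 to 128592293 of GRCm38, minus strand. High cells held 124 and 151 Cxcr4 UMIs, equal to 56.8 and 44.9 CPM (counts scaled to 1000000 UMIs, with TMM scaling between sums of cells where not called raw), and low cells held 8 and 9, equal to 1.94 and 1.92 CPM. The groups did not overlap, and the lower middle (5.56 and 9.34 CPM) and upper middle (21.2 and 18.3 CPM) lay between them in both libraries. The log2 difference was 4.67 ± 0.253 (SE, 2 libraries; adjusted p = 7.38e-10, edgeR quasi-likelihood test). When the same cells were ranked by their isotype tags into groups of the same sizes, it was 0.26 (adjusted p = 0.821). The top isotype groups had medians of 3 and 5 counts and the bottom groups 0 and 0, a narrower span than for CXCR4. Cells with equal isotype counts were ordered at random.

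Most cells with much CXCR4 protein showed no Cxcr4 transcript at this depth. At least 1 Cxcr4 UMI was found in 36.5% (95% exact interval 29.8 to 43.5) and 29.6% (24.4 to 35.3) of high cells and in 1.86% (0.807 to 3.63) and 1.70% (0.782 to 3.21) of low cells. Cells with 3 or more UMIs of the lymphatic genes, which the rule left out and whose median CXCR4 tag count was 1, gave 0.355% (0.00898 to 1.96) and 1.99% (0.959 to 3.63) at median depths of 9194 and 10920 UMIs. The share in low cells overlapped that background and is not read as expression. With each cell thinned to 3000 UMIs the shares were 17.9% and 11.3% in high and 0.718% and 0.386% in low cells, leaving out 2 and 4 shallower high and 12 and 10 shallower low cells.

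Finer steps of the tag gave finer steps of the mRNA. At 0, 1 to 3, 4 to 9, 10 to 19, 20 to 29, 30 to 49, 50 to 99 and 100 or more tag counts, Cxcr4 stood at 0.916, 2.41, 5.74, 18.3, 27.1, 33.9, 49.9 and 79.1 raw CPM in library 1. The same steps gave 1.05, 2.07, 9.15, 16.4, 20.9, 21.9, 40.7 and 68.9 in library 2. Each step was above the one before it in both libraries. Across single cells, the rank correlation of CXCR4 tag and Cxcr4 mRNA was 0.385 (1009 cells) and 0.335 (1346 cells), against 0.0222 and 0.0768 for the isotype sum, over points that share a library and vary in depth. Ranking the cells by the ICAM1 tag gave the opposite order, with 3.45 and 11.4 raw CPM of Cxcr4 in the top and 32.7 and 25.1 in the bottom group. Ranking by VEGFR2 gave 20.2 and 17.0 in the top and 21.0 and 16.6 in the bottom group.

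**Figure D2:**
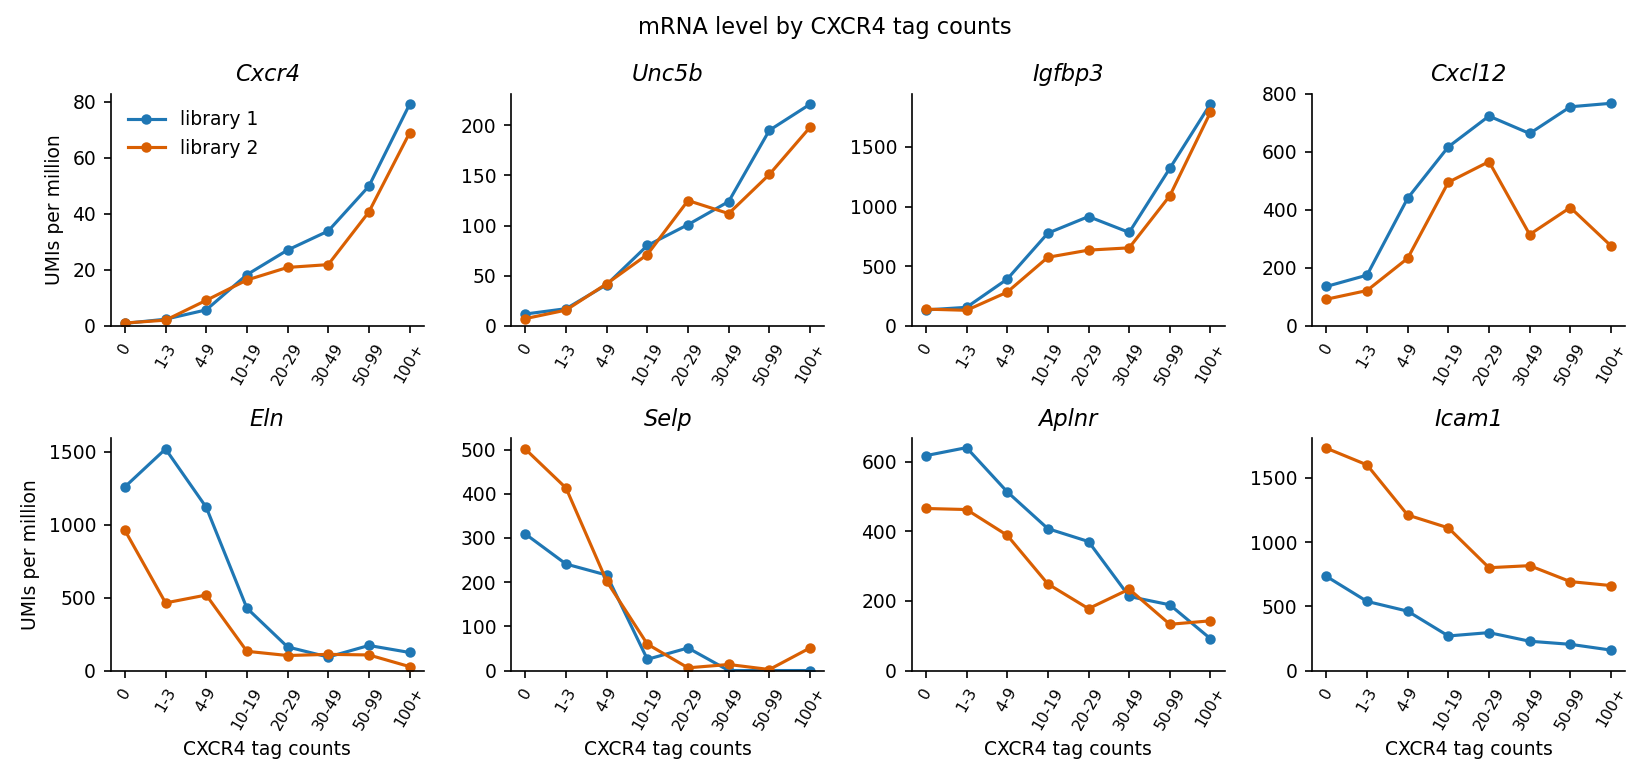
UMIs per 1000000 (raw CPM) of 8 genes (vertical axes, linear, from 0) in cells binned by CXCR4 tag counts (horizontal axes), with 1 line per library. Cxcr4 climbs through all bins to 79.1 and 68.9, while Cxcl12 reaches 723 and 566 at 20 to 29 counts and stands at 767 and 276 at 100 or more.

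Across all mRNA, 1821 of 10649 genes tested (17.1%) differed between high and low cells at an adjusted p under 0.05, with 949 higher (8.91%) and 872 lower (8.19%) in high cells. The median log2 difference of all genes was -0.01. The isotype ranking called 75 of 10660 genes (0.704%), with 39 higher (0.366%) and 36 lower (0.338%). Of the 75 genes 45 were among the 1821, which is 60% of the isotype calls, beside 17.1% of all genes, and 2.47% of the CXCR4 calls. Both rankings use the same cells, so their values are set side by side. The number of calls depended on the test and on each sum. DESeq2 called 704 genes (6.61%; 3.74% higher and 2.87% lower) and a fit without the library term 646 (6.07%; 3.55% higher and 2.52% lower). Without the high cells of library 1, 1104 were called (10.1%; 5.46% higher and 4.6% lower), and without those of library 2, 1113 (10.2%; 5.53% and 4.64%). Without the low cells of library 1, 1126 were called (10.3%; 5.63% and 4.7%), and without those of library 2, 1110 (10.1%; 5.48% and 4.66%). A refit of the same 8 sums is no independent check of a sign. All 1821 genes kept theirs in the DESeq2 fit and in that without the library term. In the latter 18 of 28 tip cell genes rose, 13 of 18 vein markers fell, and the matrix genes gave 11 rises and 10 falls, the junction genes 4 rises, and the transcription factors 1 rise.

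Among the partners of CXCR4, the ligand rose over all cells and the scavenging receptor gave no call. Cxcl12 stood at 731 and 349 CPM in high and at 160 and 120 CPM in low cells. The groups did not overlap, and the log2 difference was 1.88 ± 0.131 (adjusted p = 1.15e-08), against -0.02 in the isotype ranking. Ackr3 stood at 57.3 and 37.7 CPM in high and at 71.8 and 7.69 CPM in low cells, so the libraries went in opposite directions (0.52 ± 0.341, adjusted p = 0.356). Without library 1's high or low cells the Ackr3 difference was 1.53 (adjusted p = 0.0126) or 2.10 (adjusted p = 0.000826), and without library 2's high or low cells it was -0.12 (adjusted p = 0.892) or -0.15 (adjusted p = 0.81). With no filter on low counts it was 0.50 (adjusted p = 0.00557).

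Of 20 tested genes of the CXCL12 axis and of CXCR4 regulation, 9 rose and 2 fell, with a median of 0.31, and with DESeq2 5 rose and 1 fell. The shares of all genes were 8.91% higher and 8.19% lower, and with DESeq2 3.74% and 2.87%. The falls were near those shares. Besides Cxcr4 and Cxcl12, the risers were signal carriers and regulators of G protein signals. Gnai2, an inhibitory alpha subunit, rose by 0.45 on the log2 scale, Gng2, a gamma subunit, by 0.68, and Pik3cg, a phosphoinositide 3-kinase that answers to G proteins, by 1.83. Rgs3, which speeds the shut-off of G protein signals, stood at 141 and 159 CPM in high and at 65.2 and 72.9 CPM in low cells (1.12 ± 0.0866, adjusted p = 4.53e-08). Grk5 (0.99) and Grk2 (0.38), kinases of active receptors, and Vav3 (0.62) rose as well. Mif, a cytokine that also binds CXCR4, stood at 142 and 130 against 180 and 175 CPM (-0.39 ± 0.08, adjusted p = 0.00199), and its call was lost with DESeq2 (adjusted p = 0.0717), without the library term (adjusted p = 0.077) and without library 2's low cells (adjusted p = 0.0603). Rgs5, which is also a pericyte marker, fell by 1.53.

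Genes of tip cells, the migrating cells at the front of vessel sprouts, rose nearly as a group. Of 28 members tested, 23 rose and 1 fell, with a median of 0.84, beside 8.91% of all genes higher. In the isotype ranking 1 of the 28 rose, beside 0.366% of all genes higher. Igfbp3, a secreted binder of insulin-like growth factors, stood at 1391 and 1204 CPM in high and at 146 and 137 CPM in low cells (3.19 ± 0.0784, adjusted p = 1.78e-14). Esm1, endocan and a classic tip cell marker, stood at 203 and 223 CPM in high and at 11.6 and 33.8 CPM in low cells (3.22 ± 0.181, adjusted p = 1.19e-09). Pgf, placental growth factor, stood at 43.1 and 51.4 CPM in high and at 2.43 and 4.27 CPM in low cells (3.79 ± 0.245, adjusted p = 4.62e-09). Adm, the peptide adrenomedullin, stood at 22.9 and 21.4 CPM in high and at 3.88 and 5.34 CPM in low cells (2.23 ± 0.244, adjusted p = 2.76e-06). The high and low values of these 4 genes did not overlap. Here, above and below, such lack of overlap describes 2 sums per group and is no test. Here and below, the genes were chosen for their change. The share of all genes without overlap is not given.

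Smaller rises were found for Angpt2 (1.07), a ligand of the receptor Tek, Apln (0.80), apelin, Pdgfb (0.89), which recruits pericytes, Cd34 (0.50) and Fscn1 (0.92), an actin bundler of cell protrusions. Plaur, the urokinase receptor, was the member that fell (-0.97). Kcne3 (0.34), Cotl1 (0.18), Sox17 (0.03) and Inhbb (-0.18) did not pass. Outside the list, Myo10, a motor that travels along filopodia, stood at 347 and 338 CPM in high and at 83.7 and 96.6 CPM in low cells (1.93 ± 0.0946, adjusted p = 2.26e-10). Tubb2b, a tubulin, stood at 83.4 and 82.3 CPM in high and at 22.1 and 22.4 CPM in low cells (1.90 ± 0.134, adjusted p = 1.45e-08). H19, an imprinted long noncoding RNA, stood at 109 and 65.4 CPM in high and at 23.8 and 23.5 CPM in low cells (1.84 ± 0.17, adjusted p = 3.86e-07).

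Artery markers moved in opposite directions. Of 20 members 8 rose, 6 fell and 6 did not pass, beside 8.91% of all genes higher and 8.19% lower. The median was -0.14. The risers were led by Unc5b, a netrin receptor, at 188 and 158 CPM in high and 15.3 and 14.5 CPM in low cells (3.52 ± 0.12, adjusted p = 2.39e-12). Hey1, a Notch target, stood at 90.3 and 72.5 CPM in high and at 23.5 and 15.4 CPM in low cells (2.07 ± 0.133, adjusted p = 4.47e-09). Gja4, a connexin of gap junctions, stood at 317 and 163 CPM in high and at 123 and 46.6 CPM in low cells (1.54 ± 0.129, adjusted p = 1.15e-07), and at -0.73 in the isotype ranking (adjusted p = 0.00117). Without the library term its call was lost (adjusted p = 0.104). Efnb2, the arterial ephrin, stood at 134 and 146 CPM in high and at 59.2 and 56.8 CPM in low cells (1.27 ± 0.0908, adjusted p = 1.53e-08), and Sema3g (0.79) and Ltbp4 (0.35) rose as well.

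The arterial genes that fell were mostly those of the elastic vessel wall. Eln, elastin, stood at 136 and 85.9 CPM in high and at 1407 and 580 CPM in low cells (-3.07 ± 0.108, adjusted p = 2.75e-12), and at -0.83 in the isotype ranking (adjusted p = 0.0178). Mgp, an inhibitor of calcification, stood at 21.1 and 23.5 CPM in high and at 601 and 143 CPM in low cells (-3.76 ± 0.415, adjusted p = 2.99e-06). Fbln2, an elastic fibre protein, stood at 283 and 151 CPM in high and at 954 and 459 CPM in low cells (-1.68 ± 0.0948, adjusted p = 1.19e-09), and at -0.37 in the isotype ranking (adjusted p = 0.0161). The groups did not overlap for any of the 3. Gkn3 (-4.45), Fbln5 (-1.27) and Bmx (-0.68), a kinase, fell too, while the connexin gene Gja5 (-0.19, adjusted p = 0.6) did not pass. In the isotype ranking 9 of the 20 artery markers fell and none rose, beside 0.338% of all genes lower and 0.366% higher.

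Vein markers fell as a group, with 17 of 18 lower, none higher and a median of -1.58, beside 8.19% of all genes lower. Ackr1, the chemokine-binding receptor of venules, stood at 4.13 and 0 CPM in high and at 101 and 44.2 CPM in low cells (-5.34 ± 0.409, adjusted p = 3.9e-08). Selp, P-selectin, on which leukocytes roll, stood at 0 and 21.7 CPM in high and at 252 and 443 CPM in low cells (-4.80 ± 0.321, adjusted p = 6.71e-09). Nr2f2, the transcription factor COUP-TFII of venous identity, stood at 28.0 and 32.4 CPM in high and at 142 and 116 CPM in low cells (-2.06 ± 0.119, adjusted p = 1.48e-09). Aplnr, the apelin receptor, stood at 155 and 174 CPM in high and at 615 and 478 CPM in low cells (-1.70 ± 0.12, adjusted p = 1.45e-08). Slco2a1, a prostaglandin transporter, stood at 21.1 and 33.6 CPM in high and at 128 and 152 CPM in low cells (-2.32 ± 0.123, adjusted p = 5.93e-10). Ephb4 (-0.23, adjusted p = 0.17) was the member that did not pass. In the isotype ranking 1 of the 18 rose and none fell, beside 0.366% of all genes higher and 0.338% lower.

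Cells with 2 or more UMIs of Ackr1 and Selp together, called the vein range here, made up 30.5% and 28.2% of low but 0.985% and 1.39% of high cells. Without them, 1286 genes were called (12.3%; 6.42% of genes higher, 5.89% lower). Then 13 of 17 tested vein markers fell, a count that includes the genes used to remove cells, and 20 of 28 tip cell genes rose.

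Genes for capturing leukocytes fell in 12 and rose in 3 of 23 tested, and in 7 and 3 of 22 without the vein range. The full list holds Selp, which helped to choose the vein range. The shares of all genes were 8.19% lower and 8.91% higher, and without the vein range 5.89% and 6.42%. Sele, E-selectin, stood at 5.04 and 50.2 CPM in high and at 311 and 605 CPM in low cells (-3.96 ± 0.258, adjusted p = 5.09e-09). Cxcl10, a chemokine for T cells, stood at 22.0 and 45.8 CPM in high and at 148 and 317 CPM in low cells (-2.77 ± 0.345, adjusted p = 1.22e-05). Icam1 stood at 190 and 744 CPM in high and at 573 and 1670 CPM in low cells (-1.35 ± 0.0951, adjusted p = 1.36e-08), in the direction of its tag. Library 2 was the higher in both groups, the values overlapped across libraries, and without the library term the Icam1 call was lost (-1.26 ± 0.79, adjusted p = 0.453). Vcam1, a ligand of leukocyte integrins, stood at 8.25 and 16.1 CPM in high and at 42.9 and 28.2 CPM in low cells (-1.42 ± 0.28, adjusted p = 0.00133). It missed the threshold without library 1's high cells (-0.89, adjusted p = 0.0562) and without the vein range (-0.81, adjusted p = 0.0554). The VCAM1 tag, unlike the mRNA, went in opposite directions in the libraries, with means of 1.99 and 2.76 in high and 2.88 and 2.05 in low cells. The members that rose were Cxcl2 (0.88), F11r (0.51) and Icam2 (0.32), the first of which did so against the fall of the other chemokines that passed.

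Among further large falls, Lbp, a binder of bacterial lipopolysaccharide, stood at 4.13 and 5.05 CPM in high and at 144 and 65.0 CPM in low cells (-4.34 ± 0.225, adjusted p = 4.49e-10). Ptgs1, a cyclooxygenase of prostanoid synthesis, stood at 9.62 and 8.02 CPM in high and at 89.5 and 63.7 CPM in low cells (-3.09 ± 0.155, adjusted p = 2.8e-10). Lrg1 (-2.94), Tmem252 (-2.90), Ctsh, a lysosomal protease (-2.89), and Fbn1, fibrillin of microfibrils (-2.82), were each lower with no overlap between the groups. The Ctsh call was lost without the library term (adjusted p = 0.053).

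**Figure D3:**
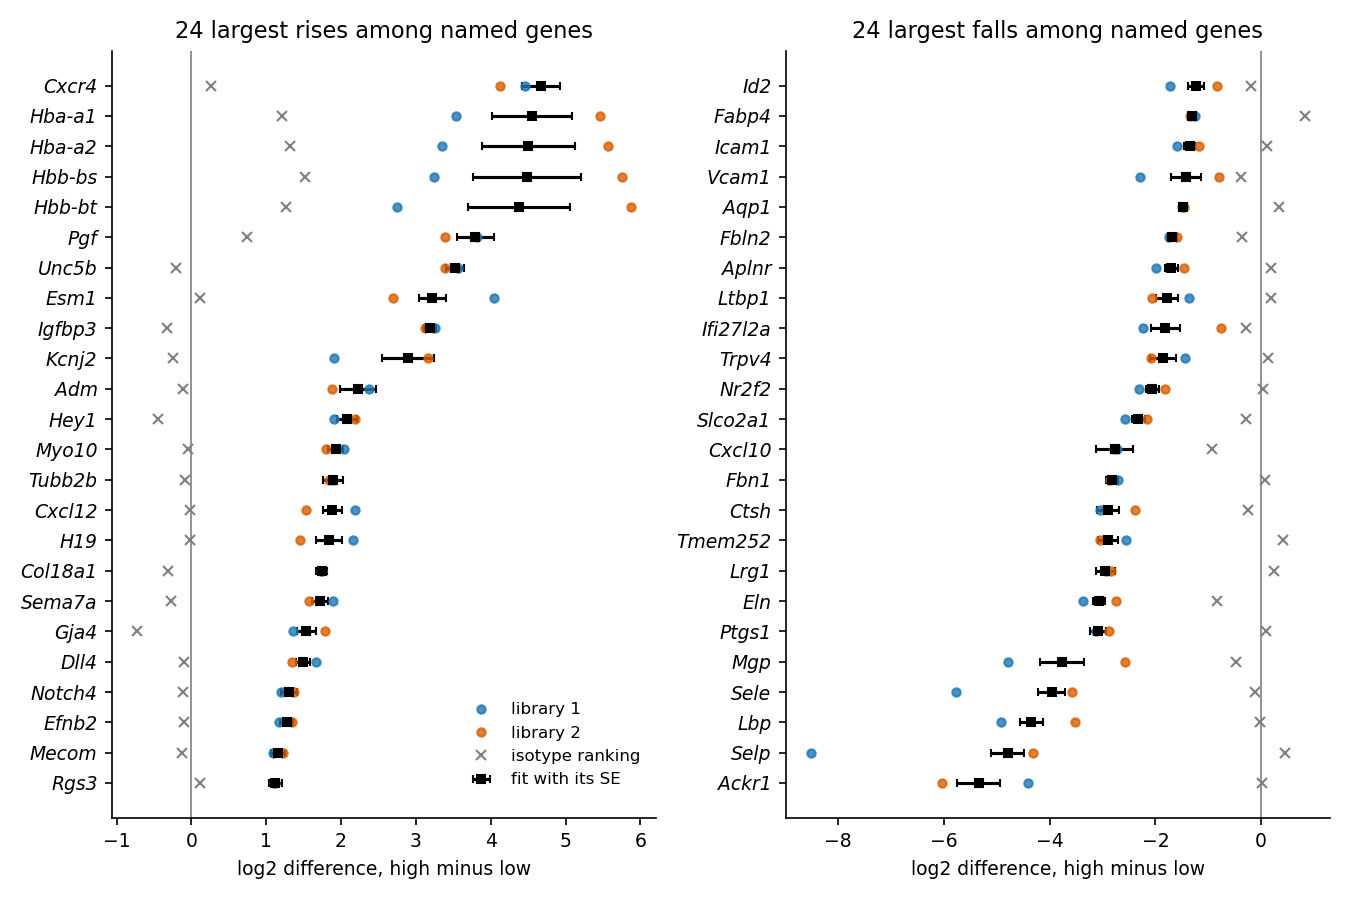
Log2 difference of CXCR4 tag high minus low cells (horizontal axes) for the 24 largest rises and 24 largest falls among named genes, as the fitted value with its SE (black squares), the value within each library with a prior count of 2 (coloured points) and the value of the isotype ranking (grey crosses). Cxcr4 leads the rises at 4.67 and Ackr1 the falls at -5.34; the isotype values of these 2 genes are 0.26 and 0.03.

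Notch signals act both in choosing tip cells and in arterial fate. Of 18 tested Notch genes, 8 rose and 4 fell, beside 5 and 1 of 17 without the vein range. The shares of all genes were 8.91% higher and 8.19% lower, and without the vein range 6.42% and 5.89%. The 1 fall without the vein range was near that share. The ligand Dll4 stood at 192 and 207 CPM in high and at 60.1 and 81.4 CPM in low cells (1.49 ± 0.0918, adjusted p = 2.67e-09), and the receptor Notch4 at 99.5 and 92.4 CPM against 42.9 and 35.3 CPM (1.30 ± 0.104, adjusted p = 6.94e-08). Notch1 (0.67), the ligand Jag2 (0.55) and the protease Adam10 (0.51) rose too. The ligands Dll1 (-1.85) and Dlk1 (-2.20), the modifier Lfng (-0.76) and Notch3 (-3.00), which is also a mural cell gene, fell. The 4 falls numbered 2, 2, 3 and 1 without library 1's high, library 2's high, library 1's low and library 2's low cells.

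Vascular endothelial growth factor (VEGF) guides tip cells through VEGFR2, and angiopoietins act through Tek. Of 19 genes of both systems, 9 rose and 4 fell, beside 8.91% of all genes higher and 8.19% lower. Kdr, the gene of VEGFR2, stood at 510 and 652 CPM in high and at 372 and 471 CPM in low cells (0.46 ± 0.0672, adjusted p = 6.73e-05). Its call was lost without the library term (adjusted p = 0.13) and in cells with 1000 or more genes and at most 5% mitochondrial UMIs (0.34, adjusted p = 0.0694). The co-receptor Nrp1 rose by 0.45 and the lymphatic receptor gene Flt4 by 0.66, while Nrp2 (-0.66), Tek (-0.41) and Angptl4 (-1.39) fell. The decoy receptor gene Flt1 (0.03, adjusted p = 0.81) did not pass.

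Axon guidance genes, which also steer sprouting vessels, rose in 11 and fell in 1 of 18, with a median of 0.43, beside 8.91% of all genes higher. Beside Unc5b and Efnb2, Sema7a, a membrane-anchored semaphorin, stood at 95.3 and 114 CPM in high and at 25.2 and 38.0 CPM in low cells (1.72 ± 0.11, adjusted p = 4.47e-09). The ephrin receptor genes Ephb1 (1.90) and Epha4 (0.74), the ephrin gene Efna1 (0.94) and the semaphorin gene Sema6d (0.75) rose, and Nrp2 was the member that fell. Without the vein range 8 of 18 rose and none fell, beside 6.42% of all genes higher.

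The vessel matrix divided by kind. Of 43 tested matrix genes 18 rose and 17 fell, beside 8.91% of all genes higher and 8.19% lower. The median was 0.29. The risers were mainly chains and binders of the basement membrane. Col18a1 stood at 554 and 455 CPM in high and at 166 and 136 CPM in low cells (1.74 ± 0.0705, adjusted p = 1.38e-11). The laminin genes Lama3 (1.94), Lamb1 (1.5), Lama4 (1.03), Lama5 (1.0) and Lamc1 (0.72), the nidogen gene Nid2 (1.0), Col4a1 (0.72), Col4a2 (0.73) and Hspg2, perlecan (0.68), rose, and the laminin gene Lamb2 fell (-0.34). The lower members lay mainly in elastic fibres and interstitial matrix, with Mmp2 (-4.30), Vcan (-4.07), Lox (-3.75), Eln, Mgp, Fbn1, Col1a2 (-2.54), Col3a1 (-2.42) and Bgn (-2.18).

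Markers of other cell types moved with these falls. The 10 fibroblast markers, Col1a2 and Col3a1 among them, summed to 76.3 and 17.6 raw CPM in low and to 11.1 and 4.61 in high cells, with Lum and Crabp1 at 0 in all 4 sums, and the 3 that could be tested fell. The 12 markers of pericytes and smooth muscle summed to 278 and 135 raw CPM in low and to 110 and 66.2 in high cells, with Cnn1 at 0 in all 4 sums. Of 6 tested 4 fell, among them Acta2 (-4.76) and Tagln (-1.01). Their part in the fall of matrix and arterial wall genes was not tested. In the isotype ranking 6 of 8 tested pericyte and smooth muscle markers were higher, beside 0.366% of all genes.

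Junction genes rose in 10 and fell in 2 of 18, beside 8.91% of all genes higher and 8.19% lower, and the falls were near that share. Cldn5, the main claudin of endothelial tight junctions, stood at 1386 and 1348 CPM in high and at 861 and 757 CPM in low cells (0.76 ± 0.065, adjusted p = 1.54e-07), and Gja1, a connexin, rose by 1.05. Plvap, which forms the diaphragms of fenestrae and caveolae, stood at 766 and 904 CPM in high and at 1406 and 1570 CPM in low cells (-0.84 ± 0.0543, adjusted p = 4.98e-09). The 10 rises numbered 7, 6, 6 and 5 without library 1's high, library 2's high, library 1's low and library 2's low cells, and 6 without the vein range.

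Capillary markers divided, with 4 of 18 higher and 6 lower, beside 8.91% of all genes higher and 8.19% lower. Gpihbp1, which anchors lipoprotein lipase in capillaries, stood at 1892 and 2076 CPM in high and at 1202 and 1447 CPM in low cells (0.59 ± 0.0553, adjusted p = 4.73e-07). Fabp4, a fatty acid carrier, went the other way, at 4861 and 3686 CPM in high and 11600 and 9336 CPM in low cells (-1.30 ± 0.0564, adjusted p = 3.78e-11). The water channel gene Aqp1 stood at 368 and 454 CPM in high and at 1036 and 1242 CPM in low cells (-1.47 ± 0.0593, adjusted p = 1.38e-11). In the isotype ranking Fabp4 and Aqp1 differed in the other direction (0.83, adjusted p = 4.33e-06, and 0.35, adjusted p = 0.003). In that ranking 7 of 18 capillary markers rose and 1 fell, beside 0.366% of all genes higher and 0.338% lower. Without library 2's high or library 1's low cells the 6 falls numbered 4 in each case.

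Among 26 endothelial transcription factors, 11 rose and 7 fell, and the rises numbered 7, 7, 7 and 6 without library 1's high, library 2's high, library 1's low and library 2's low cells. Over all genes of the main fit, 8.91% were higher and 8.19% lower. Mecom stood at 190 and 150 CPM in high and at 89.0 and 63.7 CPM in low cells (1.16 ± 0.0961, adjusted p = 1.09e-07), and Prdm1 (1.51), Tcf15 (0.66) and Sox7 (0.57) rose. Meox2 stood at 200 and 218 CPM in high and at 325 and 325 CPM in low cells (-0.63 ± 0.0704, adjusted p = 3.24e-06). Foxc2 (-4.31), Gata6 (-2.43) and Foxc1 (-0.86) fell along with Nr2f2.

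**Figure D4:**
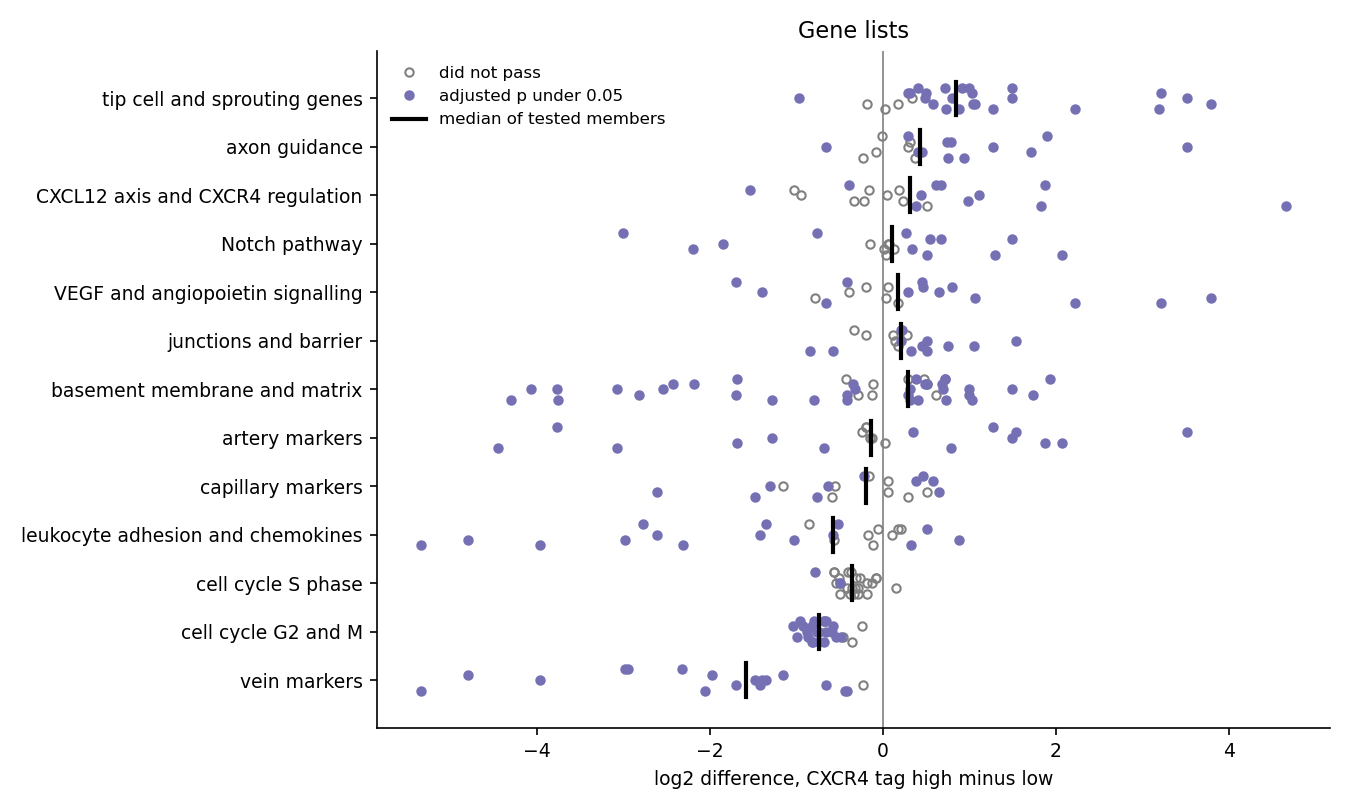
Log2 difference of CXCR4 tag high minus low cells (horizontal axis) for the tested members of 13 gene lists (vertical axis); filled points passed an adjusted p under 0.05, open points did not, and bars mark the median of the tested members. Medians run from 0.84 for tip cell genes to -1.58 for vein markers, and artery markers and matrix genes extend to both sides of 0.

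Genes of G2 and M phase were lower in high cells. Of 25 genes of G2 and M phase, 22 fell and none rose, with a median of -0.73, beside 8.19% of all genes lower. Cks2, a partner of cyclin-dependent kinases, stood at 62.8 and 85.0 CPM in high and at 106 and 154 CPM in low cells (-0.81 ± 0.0926, adjusted p = 4.47e-06), a call lost without the library term (adjusted p = 0.0706). Cenpa, of the centromere, stood at 81.1 and 79.1 CPM in high and at 133 and 133 CPM in low cells (-0.73 ± 0.0872, adjusted p = 7.29e-06). The cyclin gene Ccnb2 stood at 45.8 and 46.7 CPM in high and at 78.3 and 90.2 CPM in low cells (-0.87 ± 0.109, adjusted p = 1.2e-05). The groups did not overlap for these 3, but the 22 falls numbered 12, 19, 17 and 9 without library 1's high, library 2's high, library 1's low and library 2's low cells, 9 with DESeq2 and 10 without the library term.

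S phase genes fell in 3 of 25, namely the replication genes Mcm7 (-0.79), Tyms (-0.50) and Mcm5 (-0.49), and none rose, which is near the 8.19% of all genes lower. The Mcm5 call was lost with DESeq2 (adjusted p = 0.476) and without library 2's high cells (-0.27, adjusted p = 0.457), library 1's low cells (adjusted p = 0.0889) or library 2's low cells (adjusted p = 0.145), and that of Tyms without library 2's high (adjusted p = 0.061) or low cells (adjusted p = 0.0783). Without the library term both were lost (adjusted p = 0.208 for Mcm5 and 0.0854 for Tyms). Cells with 2 or more UMIs of 10 division genes made up 16.7% and 23.0% of high and 25.6% and 28.8% of low cells, although high cells were deeper. Without them 4 G2 and M genes could be tested and 1 fell, beside 13.2% of all genes called (6.44% higher, 6.78% lower). Division genes chose the cells removed, so this count cannot show whether the remaining cells differ in division.

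Immediate-early and stress genes, which tissue dissociation can also switch on, fell in 9 and rose in 1 of 24, and none passed without the library term. The shares of all genes were 8.19% lower and 8.91% higher, and the 1 rise was not above that share. Atf3 stood at 154 and 454 CPM in high and at 290 and 775 CPM in low cells (-0.83 ± 0.0675, adjusted p = 7.92e-08), and Ier3 at 273 and 685 CPM against 518 and 1124 CPM (-0.81 ± 0.0788, adjusted p = 6.99e-07). Library 2 was higher in both groups and the values overlapped across libraries. Without the vein range 2 fell and 3 rose, beside 5.89% of all genes lower and 6.42% higher. Atf3 then stood at -0.13 (adjusted p = 0.478) and Junb at -0.09 (adjusted p = 0.375).

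Of 18 hypoxia genes 4 rose and 1, Mif, fell, beside 8.91% of all genes higher and 8.19% lower, and the 1 fall was near that share. Epas1, the factor HIF-2 alpha, stood at 351 and 331 CPM in high and at 245 and 253 CPM in low cells (0.45 ± 0.0727, adjusted p = 0.000202), Egln3 (1.53) and Ankrd37 (0.47) rose with Adm, and Hif1a (-0.16, adjusted p = 0.22) did not pass. Glycolysis genes rose in 2 and fell in 3 of 17, beside 8.91% of all genes higher and 8.19% lower, and the rises were near that share. Pfkp (0.57), a phosphofructokinase of the committing step, and Pkm (0.37), pyruvate kinase of the last step, were higher, and Ldha (-0.28), Ldhb (-0.94) and Gapdh (-0.21) lower. The Ldha call was lost without library 2's high (adjusted p = 0.0651) or low cells (adjusted p = 0.102), and without the library term those of Ldha (adjusted p = 0.433) and Pkm (adjusted p = 0.0611) were lost. Of 27 interferon response genes, Ly6c1 (0.57) and Bst2 (0.34) rose and 3 fell, a number of calls near the 17.1% of all genes. Ifi27l2a was one of those that fell (-1.81), and its call was lost without library 1's high (-1.0, adjusted p = 0.127) or low cells (-1.23, adjusted p = 0.0713) and without the library term (adjusted p = 0.28).

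Genes that answer to blood flow rose in 7 and fell in 6 of 20, beside 8.91% of all genes higher and 8.19% lower. Kcnj2, an inward-rectifier potassium channel, stood at 13.8 and 24.7 CPM in high and at 3.15 and 2.14 CPM in low cells (2.90 ± 0.349, adjusted p = 8.31e-06), and Cav1, of caveolae, at 2346 and 2241 CPM against 1460 and 1649 CPM (0.56 ± 0.0525, adjusted p = 4.26e-07). The channel gene Trpv4 (-1.85) and the flow-induced factors Klf2 (-0.46) and Klf4 (-0.42) fell. In TGF-beta and BMP signalling 6 of 23 rose and 6 fell, against 1 and 5 of 22 without the vein range. Without it 6.42% of all genes were higher and 5.89% lower, and the 1 rise was not above that share. The receptor gene Tgfbr2 stood at 224 and 275 CPM in high and at 141 and 152 CPM in low cells (0.77 ± 0.0785, adjusted p = 1.16e-06), while the target Id2 (-1.22), Ltbp1 (-1.78), Bmp2 (-1.68) and the co-receptor gene Eng (-0.44) fell.

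Haemoglobin genes were among the largest rises and came from few cells. Hbb-bs, a beta globin, stood at 1604 and 3943 CPM in high and at 169 and 72.4 CPM in low cells (4.48 ± 0.726, adjusted p = 0.000213). Hba-a1 (4.55), Hba-a2 (4.50) and Hbb-bt (4.38) rose likewise. Reads can be shared within the alpha globin pair Hba-a1 and Hba-a2 and within the beta globin pair Hbb-bs and Hbb-bt, whose members are alike. Hbb-bs stood at 2102 and 450 CPM in the lower middle and at 162 and 1084 CPM in the upper middle, so its rise was not graded in library 1. Cells with 10 or more haemoglobin UMIs numbered 11 and 18 in high and 8 and 13 in low cells, and those with 100 or more numbered 5 and 6 against 1 and 0. The 7 erythroid markers took 2490 and 5840 raw CPM in high and 266 and 109 in low cells, with Slc4a1 at 0 in 3 of the 4 sums. Without the cells with 10 or more haemoglobin UMIs, Hbb-bs stood at 0.66 (adjusted p = 0.123), 1754 genes were called (16.6%; 8.65% higher, 7.95% lower), and 23 of 28 tip cell genes rose.

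The 22 leukocyte markers summed to 13 to 20 raw CPM in every group, with Cd52, C1qa, Csf1r, Cd3e, Cd3g, Ms4a1 and Itgam at 0 in all 4 sums, and none of 8 tested passed. Platelet, keratinocyte, and Schwann cell and melanocyte markers summed to 2.70 to 16.7 raw CPM as lists, and none of those tested passed. The 13 lymphatic markers summed to 51.6 to 89.0 raw CPM, and of 8 tested Flt4 rose and Nts (-3.21) fell.

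The groups also differed in which kinds of vessel cell they held. Beside the vein range, cells were placed in a tip range (2 or more UMIs of Esm1, Apln, Kcne3 and Pgf) and an artery range (2 or more of Gja5, Gja4, Bmx and Sema3g). A range cuts through a continuum and is no cell type, and a cell can lie in several. Tip range cells made up 56.7% and 65.5% of high and 31.2% and 40.3% of low cells, and artery range cells 47.8% and 35.5% of high and 17.2% and 8.33% of low cells. Tip or artery range held 88.2% and 86.4% of high and 47.0% and 47.7% of low cells, which were the shallower. Near the limit of the artery range, 18 and 55 high and 39 and 50 low cells had 1 UMI, and 16 and 19 high and 10 and 7 low cells had 2. For the tip range, 28 and 35 high and 87 and 86 low cells had 1 UMI, and 20 and 15 high and 29 and 57 low cells had 2.

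Cxcr4 mRNA followed its protein within the ranges as well. Among cells in the tip but not the artery range (82 and 146 high, 128 and 208 low), Cxcr4 stood at 58.7 and 44.7 CPM in high and at 1.89 and 2.74 CPM in low cells (log2 difference 4.32, adjusted p = 5.84e-09). Among cells in the artery but not the tip range (64 and 60 high, 68 and 39 low), it stood at 54.5 and 44.8 CPM in high and at 8.78 and 7.53 CPM in low cells, the latter from 4 and 2 UMIs (2.57, adjusted p = 0.00133). The difference between the ranges was -1.75 ± 0.848 and did not pass (adjusted p = 0.338). Igfbp3 rose by nearly the same step in both, from 146 and 166 to 841 and 804 CPM in the tip and from 384 and 339 to 1880 and 2230 CPM in the artery range (difference 0.12 ± 0.251, adjusted p = 0.903). In cells of none of the 3 ranges, 182 of 6202 genes (2.93%) were called, and 11 of 23 tip cell genes rose (1.66% of all genes higher, 1.27% lower). The full tip cell list holds Esm1, Apln, Kcne3 and Pgf, which chose the tip range cells removed here.

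Other genes changed differently in the tip and artery ranges. A direct test of that difference, added after the data had been seen, called 438 of 8830 genes (4.96%; 2.55% more positive and 2.41% more negative in the artery range), and 341 of these had opposite signs in the ranges. It called 225 with DESeq2 (4.6% of genes with an adjusted p) and 169 without the library term (1.91%). Without library 1's high, library 2's high, library 1's low and library 2's low cells it called 212 (2.28%), 207 (2.2%), 175 (1.88%) and 223 (2.39%). The genes described from it were chosen after their values were seen. Gene levels that chose the cells of a range (Gja4 and Esm1, for example) are not compared here.

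Artery range cells with little CXCR4 carried the elastic wall genes. Mgp stood at 3690 and 2050 CPM in low and at 1.51 and 3.58 CPM (1 and 2 UMIs) in high artery range cells, against 5.05 and 5.94 CPM in low and 13.1 and 2.08 CPM in high tip range cells (difference -10.29 ± 2.03, adjusted p = 0.00175). With so few UMIs the size of that fitted value is no bound. Eln stood at 7060 and 7250 CPM in low and at 248 and 243 CPM in high artery range cells, and at 91.6 and 85.5 against 16.3 and 13.0 CPM in the tip range (difference -2.29 ± 0.632, adjusted p = 0.031). Fbln2 fell in both ranges, from 2680 and 2480 to 489 and 419 CPM in the artery range and from 266 and 218 to 84.8 and 39.5 CPM in the tip range, and the difference did not pass (-0.43 ± 0.214, adjusted p = 0.351).

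Gpihbp1, Kdr and Plvap rose in the high cells of the artery range, while the capillary markers Fabp4 (-0.34, adjusted p = 0.0876) and Meox2 (0.0, adjusted p = 0.999) did not pass there. Gpihbp1 stood at 874 and 813 CPM in high and at 110 and 173 CPM in low artery range cells, and at 2520 and 2640 against 1740 and 1780 CPM in the tip range (difference 2.10 ± 0.173, adjusted p = 2.05e-08). Kdr stood at 430 and 498 against 123 and 218 CPM in the artery range and at 531 and 711 against 443 and 532 CPM in the tip range (difference 1.15 ± 0.18, adjusted p = 0.000129). Plvap rose in the artery range, from 331 and 433 to 712 and 700 CPM, and fell in the tip range, from 1540 and 1580 to 821 and 949 CPM (difference 1.73 ± 0.205, adjusted p = 2.86e-06).

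The differences of Cldn5, Hey1, Cxcl12 and Ackr3 were more negative in the artery range. Unc5b, an artery marker, rose in both ranges (3.03 in the tip and 2.02 in the artery range), and the difference did not pass (adjusted p = 0.0819). Cldn5 rose in the tip range, from 522 and 619 to 1170 and 1260 CPM, and fell in the artery range, from 2640 and 2490 to 1690 and 1610 CPM (difference -1.74 ± 0.155, adjusted p = 7.69e-08). Hey1 stood at 38.1 and 33.7 CPM in high and 4.42 and 5.03 CPM in low tip range cells, and at 147 and 165 against 165 and 151 CPM in the artery range (difference -2.87 ± 0.376, adjusted p = 1.07e-05). Cxcl12 stood at 126 and 87.2 against 41.1 and 28.8 CPM in the tip range and at 1440 and 970 against 1000 and 1060 CPM in the artery range (difference -1.36 ± 0.238, adjusted p = 0.000461). The Cxcl12 rise passed in the tip range (1.59, adjusted p = 2.62e-06) but not in the artery range (0.23, adjusted p = 0.383). Ackr3, which gave no call over all cells, stood at 60.9 and 44.1 CPM in high and 5.05 and 4.57 CPM in low tip range cells (3.40, adjusted p = 4.05e-07), and at 33.3 and 21.5 against 96.6 and 30.1 CPM in the artery range (-1.24, adjusted p = 0.0694). The Ackr3 difference between the ranges was -4.65 ± 0.576 (adjusted p = 4.84e-06).

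**Figure D5:**
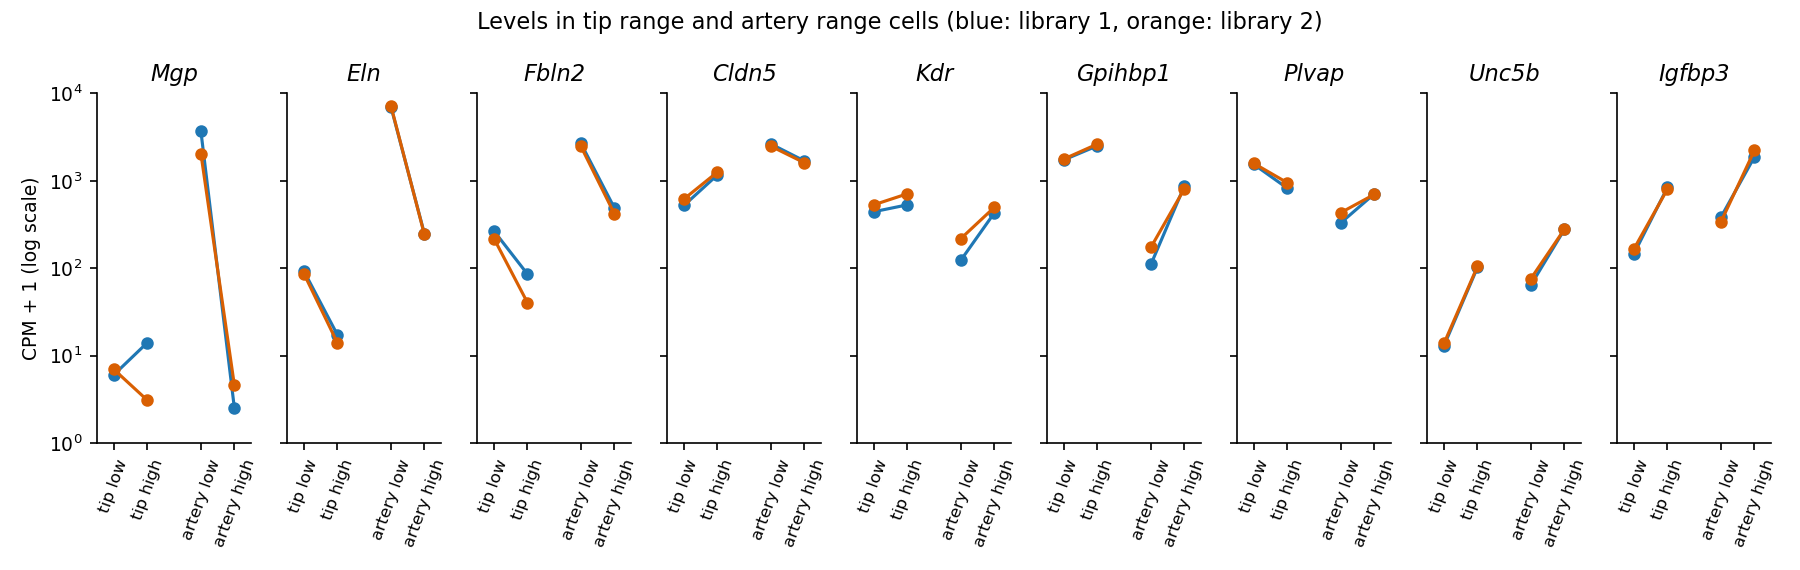
CPM plus 1 (vertical axes, log scale) of 9 genes in low and high CXCR4 tag cells of the tip range only and of the artery range only, with 1 point per library. Mgp and Eln fall from low to high in artery range cells, Gpihbp1 and Kdr rise there, and Plvap and Cldn5 change in opposite directions in the ranges.

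The genes whose pattern over the 8 sums was most like that of Cxcr4, by Pearson correlation of log2 CPM with each library centred and among 4739 genes, were Pea15a (0.999), Col18a1 (0.996), Cdh13 (0.996), Rgs3 (0.996) and Tpst1 (0.995). Their log2 differences between high and low cells were smaller than that of Cxcr4, at 0.69, 1.74, 0.62, 1.12 and 1.16. The sums share library and tag class, so the correlations are a description.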

How the data were processed

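The 2 mRNA libraries (10x Genomics 3' v3) and their antibody tag libraries (TotalSeq-A) were used as deposited. mRNA values are the authors' deposited whole UMI counts, not normalized. The submitters' processing notes name Cell Ranger, Seurat 3.0.2 and mm10, with roles not given in the sources used here. Tag values are deposited whole-number counts per antibody and barcode, and may be UMIs or reads, which the labels do not say.

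Cells were joined by barcode within a library and filtered by the rule in the report. Counts were summed per library and tag class (8 sums) and tested with edgeR 4.0.16 (R 4.3.3; TMM scaling, filterByExpr, quasi-likelihood F test) with library as a block, because classes of 1 library come from the same preparation. P-values were Benjamini-Hochberg adjusted over all genes tested (0.05). They rest on 8 sums from 2 libraries and 3 residual degrees of freedom. With library as a block, they and the SE values measure how unevenly the classes differ in these libraries. The difference in level between the libraries is taken out by the block, and dispersion estimates are shared across genes. Mitochondrial genes and the 7 rule genes were left out. Members, gene lists and tests were chosen with earlier results of these data known.

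The rule for naming genes took the genes of tagged proteins, Cxcl12 and Ackr3, then the 12 largest rises and falls whose log2 CPM was at least 5 and whose libraries moved together, and for each list at most 3 members with the smallest adjusted p; other list members were picked after their values were seen. A simulation with known changes (10506 genes) recovered 99% of 4-fold and 75% of 2-fold changes, with 7.07% false calls. It drew independent counts with the dispersions of these data and changed 196 genes, against 1821 called here. Its rates therefore need not hold for these data. Scrublet marked 2 and 1 kept cells (0.198% and 0.0743%), so doublets were in effect not removed. Intervals are exact Clopper-Pearson and cover counting error only. Coordinates are from GENCODE on GRCm38. Kept cells held 9717040 and 13665858 UMIs. Alternatives covered the test, filters, class limits, matching, thinning and left-out cells.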

Additional observations from a re-analysis of the deposited data

Results flagged for a closer look

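Cells that the rule left out were looked at for CXCR4 tag counts. Cells with 5 or more UMIs of the mural genes Pdgfrb, Kcnj8 and Ndufa4l2 (68 and 89 cells) had a mean of 32.1 and 22.3 CXCR4 tag counts, with 23.5% and 19.1% of them at 30 or more, against means of 0.353 and 0.551 for isotype IgG2b and of 1.54 and 2.85 for isotype IgG2a. Their median CXCR4 count was 7.5 and 9. Cells that met the rule had a median of 5 and 6, and 203 of 1009 and 287 of 1346 reached 30, a similar share. Cells with 3 or more UMIs of Prox1, Mmrn1 and Reln (282 and 502 cells) had means of 1.55 and 1.98, against 0.184 and 0.279 for isotype IgG2b and 1.07 and 1.68 for isotype IgG2a, so the excess over the isotypes was small.

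A set of named genes changed by a different amount in artery range than in tip range cells, by the direct test of the difference (artery minus tip, log2, edgeR quasi-likelihood test, adjusted p under 0.05). More positive in the artery range were Gpihbp1 (2.10), Cks2 (1.95), Aqp1 (1.87), Plvap (1.73), Icam1 (1.28), Kdr (1.15), Emcn (0.94), Ier3 (0.59) and Ly6c1 (0.48). More negative there were Ackr3 (-4.65), Hey1 (-2.87), Vcam1 (-2.67), Eln (-2.29), Notch4 (-1.90), Cldn5 (-1.74), Efnb2 (-1.54), Cxcl12 (-1.36), Epas1 (-0.83), Dll4 (-0.82), Col18a1 (-0.70) and Ldha (-0.47). Mgp (-10.29) and Ctsh (-6.60) were so as well, with 1 or 2 UMIs in each sum of high artery range cells.

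Selp (4.19), Sele (3.82) and Hba-a2 (3.65) were also more positive in the artery range and rest on 1 library or few UMIs. Selp stood at 0 and 96.7 CPM in high and 48.3 and 79.1 CPM in low artery range cells, and at 0 and 7.79 against 158 and 164 CPM in the tip range. Sele stood at 4.54 and 84.1 CPM in high and 11 and 48.9 CPM in low artery range cells. Hba-a2 had 0 and 1 UMIs in low artery range cells.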

How the results depend on the processing

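Cxcr4 mRNA was higher in high cells and passed the threshold in all 30 alternatives, at log2 differences from 2.89 to 5.42. The count of 1821 genes fell to 704 with DESeq2, 1192 when cells were matched on the other antibody tags, 862 when thinned to 3000 UMIs and 733 under stricter cell filters. It was 1070 without the tip range, 1198 in tip range cells only, 659 in artery range cells only and 182 without the 3 ranges, where fewer cells or genes were tested. It ranged from 1104 to 1126 when 1 library's high or low cells were left out. Without the replicate block, that is without library as a term, 646 genes were called, 14 of 72 other named genes lost their call and none changed sign. The isotype ranking gave 19 calls with DESeq2, 179 with no low-count filter, 0 without the replicate block (edgeR; 354 at an unadjusted p under 0.05), 1 by isotype IgG2b alone, 94 by isotype IgG2a alone and 24 to 43 with 1 sum left out. The difference between ranges gave 225 with DESeq2, 169 without the replicate block and 175 to 223 with 1 sum left out.

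Of the 72 other named genes 19 kept direction and side of the threshold in every alternative that tested them. Only 61 of the 72 were tested without the 3 ranges and 69 in artery range cells only. In at least 1 alternative 17 changed sign. In artery range cells only, Icam1 (0.06), Hey1 (-0.05), Notch4 (-0.36), Aqp1 (0.24), Mcm7 (0.44), Tyms (0.20), Mcm5 (0.41), Cks2 (0.13), Efnb2 (-0.19), Epas1 (-0.67), Atf3 (0.14), Plvap (0.42), Gja4 (-0.55, a gene that chose these cells), Cldn5 (-0.71), Emcn (0.52) and Ackr3 (-0.56) did so. Ackr3 also did so without library 2's high (-0.12) or low cells (-0.15; up to 2.10 without library 1's low cells), the tip range (-0.97), dividing cells (-0.11) or the 3 ranges (-0.18), and Hbb-bs without the 3 ranges (-0.50). Of the genes listed with a changed sign in artery range cells only, Epas1, Gja4, Cldn5 and Emcn passed the threshold there and the others did not. The cause of the sign changes was not tested. Alternatives within single ranges, without the 3 ranges and without haemoglobin cells were chosen after seeing the data. Depth limits Cxcr4 in low cells, with 8 and 9 UMIs in all.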
